A study of Mus musculus with 9 samples.

Results

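Mature sperm carry their DNA on protamines, and the histones are taken off while round spermatids become elongating spermatids. The genes described here are 9 regulators of that exchange and of spermatid chromatin: Brdt and Brd2, which encode bromodomain proteins; Epc1, Kat5 and Kat8, which encode subunits of histone acetyltransferase complexes; Rnf8, which encodes a ubiquitin ligase; Chd5, which encodes a chromatin remodeller; Hdac1, which encodes a histone deacetylase; and Kdm3a, which encodes a histone demethylase. They were taken by symbol, with no cut on their measured values, and are 9 of 21877 NCBI genes among 50493 features in the deposited tables. Earlier results of these data were known when genes and lists were chosen. All 9 had a row, and all 9 passed the filter on low counts.

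In spermatids the tails of histone H4 are heavily acetylated, acetylated nucleosomes are bound by the testis-specific protein BRDT, and transition proteins and then protamines replace the histones. In mice, RNF8 ubiquitinates histones H2A and H2B in these cells, CHD5 takes part in chromatin compaction, and KDM3A removes methyl groups from histone H3 at the genes of transition protein and protamine. Transcription winds down as the nucleus condenses, so RNAs made in pachytene spermatocytes and round spermatids can be stored and used later.

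RNA was measured in 3 kinds of male germ cell from the testis of wild-type mice: pachytene spermatocytes (PAC), which are in meiotic prophase; round spermatids (RS), the haploid cells after meiosis; and elongating spermatids (ES), in which chromatin condenses. Each cell type had 3 libraries, described by the submitters as biological replicates. The labels give no treatment and no mutant allele, and they do not state the strain, the age, how cells were isolated or how many animals each library came from, so p-values measure the spread between these libraries only. The libraries were made from total RNA without ribosomal RNA and kept the strand.

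Total counts per library ran from 22910156 to 33801617. Libraries of 1 cell type differed from each other by more than sampling noise, with a chi-square per degree of freedom of 6.18 to 11.0 in RS, 23.2 to 83.0 in PAC and 27.9 to 101 in ES, so none was the same library deposited again. Whether any were prepared from the same cells is not tested by these counts. Of 11 pachytene marker genes, 8 were lower in RS than in PAC and 9 lower in ES than in PAC, although their summed level, 4440 to 4590 CPM (counts scaled to a common library size) in PAC, 3550 to 3810 in RS and 4550 to 5670 in ES, did not set PAC apart. In ES the largest parts of the pachytene sum were Pgk2, at a mean of 2850 CPM against 366.2 in PAC, and Ldhc, at 1616 against 1867. Of 10 round spermatid genes 9 were higher in RS than in PAC and 8 lower in ES than in RS. The summed level of 11 elongating spermatid genes was 2340 to 3250 CPM in PAC, 16700 to 19000 in RS and 47900 to 78600 in ES. The transition protein gene Tnp1 averaged 510.7 CPM in PAC, 4638 in RS and 9771 in ES, and the protamine gene Prm1 averaged 475.9 CPM in PAC, 4335 in RS and 11705 in ES. Markers of somatic cells were present as well. The summed level of 17 Sertoli cell genes was 47.6 to 105 CPM in PAC, 13.6 to 14.9 in RS, where Amh and Fshr had no counts, and 350 to 389 in ES. That of 13 macrophage and blood genes was 6.51 to 8.09 CPM in PAC, 19.6 to 23.8 in RS and 173 to 272 in ES. The largest parts of this sum in ES were the globin genes Hbb-bs, at a mean of 85.3 CPM, Hba-a1 at 48.9 and Hba-a2 at 32.5. Next came the macrophage gene C1qb, at 24.7 CPM in ES against 6.44 in RS. Leydig cell markers were the largest somatic signal in PAC: the summed level of 10 genes was 136 to 175 CPM in PAC, 28.6 to 31.0 in RS, where Lhcgr had no counts and Fdx1, which is not specific to Leydig cells, made up most of the sum at a mean of 27.6, and 37.3 to 40.0 in ES. In such pooled cells, fewer cells of a type and less RNA per cell cannot be told apart.

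Per unit of transcript length, in the authors' FPKM (fragments scaled by transcript length and library size), the bromodomain genes led the group in PAC and RS and Rnf8 was at the bottom in each cell type. In PAC, Brd2 averaged 152.5 FPKM, Brdt 148.7, Kat5 120.5, Kat8 112.7, Hdac1 101.4, Kdm3a 81.2, Epc1 28.6, Chd5 6.87 and Rnf8 4.83. The libraries of Brd2 and Brdt overlapped, as did those of Kat5 and Kat8, Kat8 and Hdac1, and Chd5 and Rnf8, so their ranges did not separate these neighbours in the order. Such ranges leave aside that both genes of a pair were measured in the same libraries. Among round spermatid libraries the order was Brd2 at 155.4, Brdt at 140.7, Kat8 at 117.6, Hdac1 at 89.5, Kat5 at 50.4, Kdm3a at 33.9, Chd5 at 16.2, Epc1 at 14.3 and Rnf8 at 1.06 FPKM, and no 2 neighbours overlapped. In ES, Brdt came first at 98.0 FPKM, before Kat8 at 75.4, Brd2 at 56.8, Hdac1 at 41.8, Kat5 at 32.8, Kdm3a at 25.9, Chd5 at 22.5, Epc1 at 9.51 and Rnf8 at 1.95 FPKM. There the libraries of Brd2 and Hdac1, Hdac1 and Kat5, Kat5 and Kdm3a, and Kdm3a and Chd5 overlapped. Brd2 thus stood first in RS and below both Brdt and Kat8 in ES, and Chd5 passed Epc1 between PAC and RS.

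Across the 3 cell types together, 8 of the 9 genes varied (joint F test in edgeR, adjusted p from 2.90e-06 for Kat5 to 0.0110 for Brdt), and Kat8 did not pass (adjusted p = 0.0941). Of all features 82.0% passed the same test, and of protein-coding genes 84.9%, so a share of this size is not particular to the group. The genes were called in different directions and at different steps. Chd5 rose. Epc1, Kat5 and Kdm3a fell between PAC and RS, Brd2 and Hdac1 fell between RS and ES, and Rnf8 fell and then rose. Brdt fell only over the whole interval, and Kat8 passed in no comparison.

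**Figure D1:**
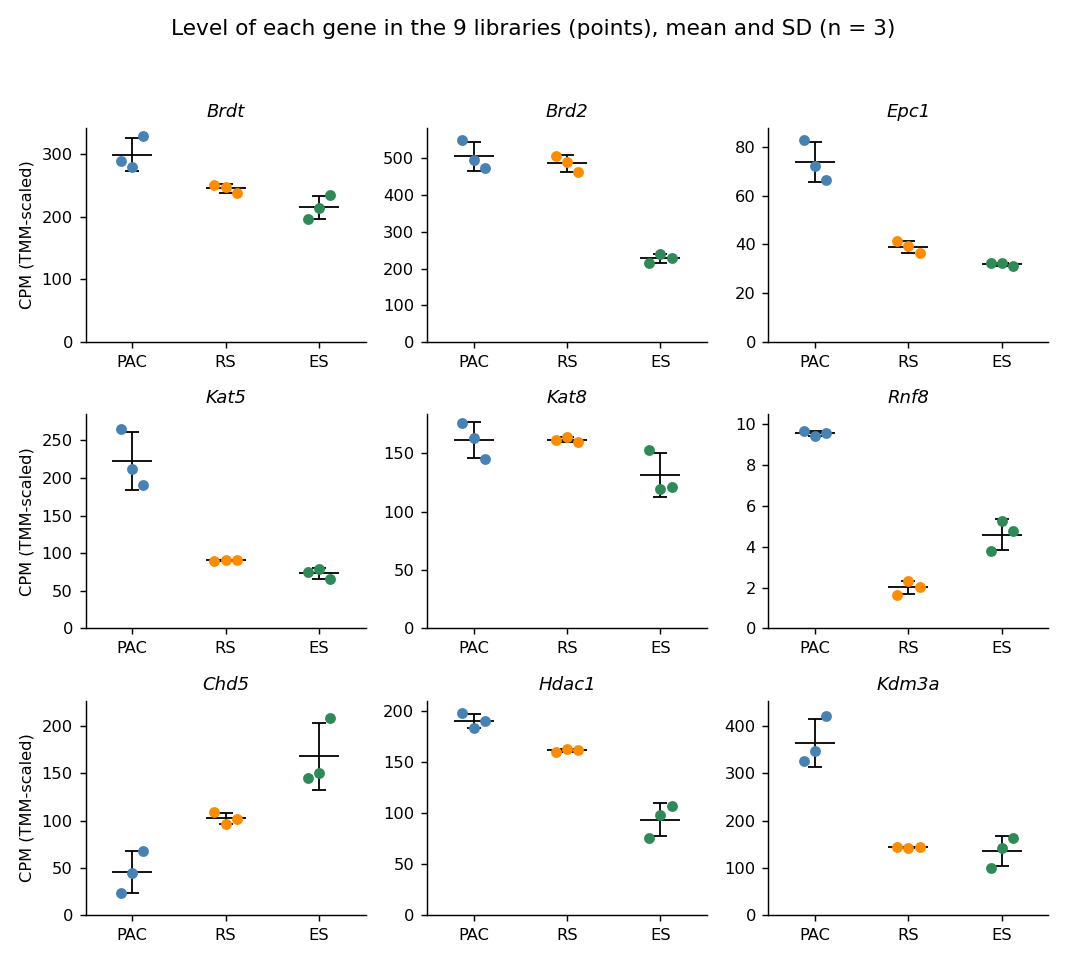
Level of each of the 9 genes in CPM after TMM scaling (vertical axes start at 0) in PAC, RS and ES; points are the 9 libraries, and bars are the mean and SD of 3. Chd5 climbs to 168 CPM in ES, Brd2 stays near 500 in PAC and RS and is at 228 in ES, and Rnf8 is lowest in RS at 2.01.

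The comparison of RS with PAC asks which RNAs differ between meiotic prophase and the first haploid cells. Of the 9 genes, 1 was higher (Chd5) and 4 were lower (Rnf8, Kdm3a, Kat5 and Epc1) in RS, by edgeR's quasi-likelihood test at an adjusted p below 0.05 over all 26030 features tested. Among all features 72.5% were called, 38.2% higher and 34.2% lower, and among protein-coding genes 73.2% were called, 26.3% higher and 46.9% lower. The median log2 fold change of the 9 genes was -0.285, against 0.113 over all features and -0.464 over protein-coding genes. In 7 of the 9, the libraries of RS and PAC did not overlap, as in 79.1% of all features; the exceptions were Brd2 and Kat8. In the same comparison 9 of 10 tested Leydig cell markers and 13 of 15 Sertoli cell markers were lower in RS than in PAC. Of 11 spermatogonial markers, 5 were lower and 2 higher. Other markers went the other way, with 7 of 11 macrophage and blood markers higher. Of 8 peritubular and vascular markers, 5 were higher and 1 lower. The part of such cells in the calls of the 9 genes was not tested.

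The comparison of ES with RS asks what differs as spermatids elongate, when histones are removed. Rnf8 was higher in ES, and Brd2 and Hdac1 were lower. Among all features 46.6% were called, 24.5% higher and 22.1% lower, and among protein-coding genes 53.5% were called, 31.8% higher and 21.7% lower. The libraries of ES and RS did not overlap for 8 of the 9 genes, against 59.4% of all features, the exception being Kdm3a, yet most of these differences were small. The median log2 fold change of the 9 genes was -0.287, against 0.048 over all features and 0.182 over protein-coding genes.

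Over the whole interval, 1 gene was higher in ES than in PAC (Chd5) and 7 were lower (Kat5, Kdm3a, Epc1, Brd2, Rnf8, Hdac1 and Brdt). Among all features 64.4% were called, 30.6% higher and 33.7% lower, and among protein-coding genes 67.8% were called, 25.2% higher and 42.6% lower. The median log2 fold change of the 9 genes was -1.05, against -0.093 over all features and -0.385 over protein-coding genes. In 8 of the 9 the libraries of ES and PAC did not overlap, as in 67.5% of all features, with Kat8 the exception. The 3 comparisons share libraries with each other, so their values are given side by side and not as independent support. Which of these calls depend on the scaling of the libraries is given with each gene.

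**Figure D2:**
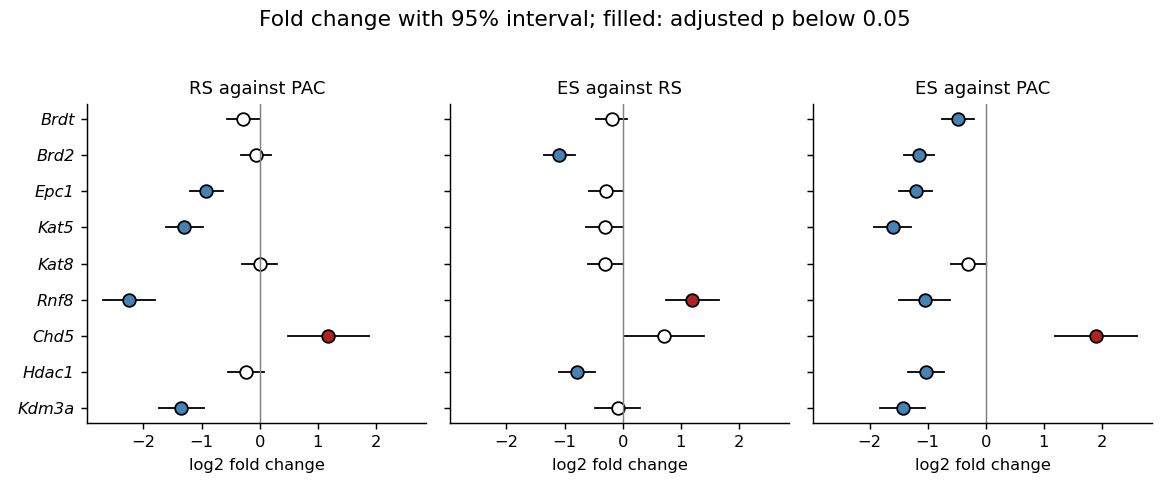
Log2 fold change of the 9 genes with its 95% confidence interval in RS against PAC, ES against RS and ES against PAC; filled points passed an adjusted p below 0.05 (red higher, blue lower), open points did not. Rnf8 lies left of 0 in the first panel at -2.25 and right of it in the second at 1.20, and Chd5 lies right of 0 in all 3.

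Chd5 encodes a chromodomain helicase of the same family as the core ATPases of the nucleosome remodelling and deacetylase complex NuRD, and was the one gene of the 9 called higher in RS than in PAC and in ES than in PAC. Its promoter window is shown for those 2 calls. In this window, as in the others, capitals mark matches on either strand to 6 motifs: the cAMP-response full site (TGACGTC), its half-site (TGACG), an RFX half-site (GTTGCC), a MYB site (AACTGNC), a GC box (GGGCGG) and a TATA box (TATAAA). The cAMP-response half-site lies within the full site, so a match to the full site also counts as a match to the half-site. The sequences are RefSeq windows of GRCm38.p6 that run from 250 bases before to 50 after a transcription start, printed on the gene's strand. Chd5 and Kat5 each had 2 such windows, Kdm3a 3 and Rnf8 1. Where a gene had more than 1, only the window nearest the start of the gene is shown, and motifs in its other windows are not reported here. The Chd5 window lies at chr4:152338401-152338700 on the plus strand. It holds 1 match to the full cAMP-response site, which is in 3.21% of the 32851 windows in the table, 1 to the RFX half-site (12.5% of windows) and 3 to the GC box (35.7% of windows). No window shown here matches the TATA box, which is in 13.6% of all windows. These matches describe the letters only.
Chd5: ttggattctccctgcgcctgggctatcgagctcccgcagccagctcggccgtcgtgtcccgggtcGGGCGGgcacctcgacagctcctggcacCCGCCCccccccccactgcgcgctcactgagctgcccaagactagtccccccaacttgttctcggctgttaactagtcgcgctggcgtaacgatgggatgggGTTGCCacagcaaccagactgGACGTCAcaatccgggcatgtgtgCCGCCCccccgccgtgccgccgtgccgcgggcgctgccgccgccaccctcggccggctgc

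Chd5 (chromosome 4, 152338646 to 152390194, plus strand) had 23.5, 44.2 and 67.9 CPM in the PAC libraries, 108.5, 96.4 and 102.1 in RS, and 144.6, 150.7 and 208.4 in ES. Ranges of the 3 cell types did not overlap, and the PAC libraries spread most relative to their mean, with coefficients of variation of 49.2% in PAC, 5.94% in RS and 21.0% in ES. The level in RS was 2.27-fold that in PAC (log2 fold change 1.18, SE 0.31, adjusted p = 0.00647), and that in ES was 3.72-fold that in PAC (log2 fold change 1.89, SE 0.32, adjusted p = 0.000425). From 20 alternative settings the RS against PAC value ranged from 0.865 without PAC replicate 1 to 1.60 without PAC replicate 3, and it stayed past the threshold. For ES against RS the log2 fold change was 0.71 with a 95% interval from 0.027 to 1.40 (adjusted p = 0.0824). That last value passed the threshold in 6 of the alternatives, among them the omission of PAC replicate 1 (0.695) or 3 (0.693), so whether Chd5 was higher in ES than in RS rests on such choices. Within PAC the Chd5 values ran opposite to the summed Sertoli cell markers, which were 105, 75.5 and 47.6 CPM in replicates 1, 2 and 3, and their part in the Chd5 spread was not tested.

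Rnf8 encodes a ubiquitin ligase that, with the conjugating enzyme UBE2N, marks histones at DNA breaks and on the inactive sex chromosomes of meiosis, and in mice on spermatid nucleosomes. Its promoter window is shown because Rnf8 was the only one of the 9 genes that passed the test in opposite directions at the 2 steps. The window lies at chr17:29614539-29614838 on the plus strand. It holds 1 match to the MYB site, which is in 12.8% of windows, and 2 to the GC box.
Rnf8: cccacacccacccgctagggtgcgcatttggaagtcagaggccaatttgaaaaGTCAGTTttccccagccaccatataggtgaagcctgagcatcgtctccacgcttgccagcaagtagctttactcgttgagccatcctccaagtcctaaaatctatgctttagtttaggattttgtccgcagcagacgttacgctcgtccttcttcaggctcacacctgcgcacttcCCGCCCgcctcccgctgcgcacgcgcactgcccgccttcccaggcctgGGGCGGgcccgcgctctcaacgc

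Rnf8 (chromosome 17, 29614789 to 29641664, plus strand) had 9.67, 9.43 and 9.59 CPM in PAC, 1.66, 2.32 and 2.04 in RS, and 3.78, 5.24 and 4.78 in ES. Here too the 3 ranges did not overlap, and ES lay between RS and PAC. The level was 4.75-fold lower in RS than in PAC (log2 fold change -2.25, SE 0.21, adjusted p = 3.40e-06), the largest fold among the 9 genes in any comparison. It was 2.29-fold higher in ES than in RS (log2 fold change 1.20, SE 0.21, adjusted p = 0.000710) and 2.07-fold lower in ES than in PAC (log2 fold change -1.05, SE 0.20, adjusted p = 0.000667). All 3 calls held under the 20 alternatives, although on log2(FPKM + 1), which understates changes at such low levels, the ES against RS value was 0.51.

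Rnf8 counts are less certain than those of most of the 9 genes. They were not whole in 8 of 9 libraries, and the locus overlaps Gm28043 on the same strand, whose feature had 311 counts summed over the 9 libraries. The way in which shared reads were divided is not stated in the labels. The rise of Rnf8 in ES against RS came with higher Sertoli cell markers (15 of 15 tested genes higher), higher Leydig cell markers (9 of 10 higher and 1 lower), higher spermatogonial markers (6 of 11 higher and 1 lower), higher macrophage and blood markers (8 of 11) and 5 of 11 pachytene markers higher and 2 lower. The Leydig cell markers, like Rnf8, were also lower in RS than in PAC (9 of 10) and in ES than in PAC (10 of 10). The part of such cells in the Rnf8 values was not tested.

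The other genes of the RNF8 ubiquitin pathway did not move in 1 direction. Of 13 tested, 5 were higher and 5 lower in RS than in PAC, 4 were higher and 4 lower in ES than in RS, and 2 were higher and 5 lower in ES than in PAC. H2ax, the histone variant phosphorylated at breaks, fell to 11.4 ± 3.05 CPM in RS, against 218.6 ± 37.5 in PAC (log2 fold change -4.26, adjusted p = 1.25e-07), and was higher in ES than in RS at 49.0 ± 9.19 CPM (2.10, adjusted p = 2.32e-05; SD, n = 3 each). Ube2v2, which encodes a partner of UBE2N, rose to 110.3 ± 5.71 CPM in RS, against 47.5 ± 5.58 in PAC (adjusted p = 9.10e-06). Brca1, which acts downstream of RNF8 at breaks, fell to 17.96 ± 5.13 CPM in ES, against 44.2 ± 0.652 in RS (adjusted p = 0.000524). Of the wider set of 18 ubiquitin ligases and proteases of H2A and H2B, 6 were higher and 7 lower in RS than in PAC, and 6 were higher and 6 lower in both ES comparisons.

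Among the acetyltransferase genes, Kat5 and Epc1 fell at the first step and Kat8 did not pass. Kat5 encodes TIP60, the catalytic subunit of the NuA4/TIP60 complex, which acetylates histones H4 and H2A. Its promoter window is shown because Kat5 fell most among the acetyltransferase genes of the 9. It lies at chr19:5610045-5610344 on the minus strand, 1462 bases inside the RefSeq end of the gene. It holds 1 match to the full cAMP-response site and, counting the one within it, 2 to its half-site, which is in 20.8% of windows.
Kat5: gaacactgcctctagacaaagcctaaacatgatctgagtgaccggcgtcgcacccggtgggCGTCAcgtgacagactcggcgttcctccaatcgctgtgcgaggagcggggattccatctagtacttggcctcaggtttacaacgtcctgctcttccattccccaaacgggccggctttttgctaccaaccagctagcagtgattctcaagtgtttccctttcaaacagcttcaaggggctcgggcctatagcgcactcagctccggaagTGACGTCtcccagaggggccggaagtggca

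Kat5 (chromosome 19, 5603014 to 5611556, minus strand) had 264.7, 212.1 and 190.7 CPM in PAC, 90.3, 90.3 and 91.0 in RS, and 75.0, 79.3 and 65.3 in ES. Every RS library was below every PAC library, and the RS libraries differed from each other by less than 1 CPM. The level was 2.46-fold lower in RS than in PAC (log2 fold change -1.30, SE 0.15, adjusted p = 1.41e-05) and 3.04-fold lower in ES than in PAC (log2 fold change -1.60, SE 0.15, adjusted p = 3.77e-06). The further difference of ES against RS was -0.31 (95% interval -0.624 to 0.010, adjusted p = 0.103). It passed with total counts alone (-0.638), on FPKM (-0.628 and -0.614), with genes normalised alone (-0.439) and without PAC replicate 1 (-0.327). Rnaseh2c overlaps Kat5 on the opposite strand, and had 8123 counts summed over the libraries.

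Epc1 encodes the scaffold that joins the TIP60 catalytic module to nucleosomes, and lies on chromosome 18. It had 82.6, 72.0 and 66.5 CPM in PAC, 41.3, 39.2 and 36.3 in RS, and 32.2, 32.3 and 31.2 in ES, with no overlap between cell types. The level was 1.89-fold lower in RS than in PAC (log2 fold change -0.92, SE 0.13, adjusted p = 7.47e-05) and 2.31-fold lower in ES than in PAC (-1.21, SE 0.13, adjusted p = 1.17e-05). For ES against RS the value was -0.29 (adjusted p = 0.0910), and it passed the threshold with total counts alone (-0.617), on FPKM (-0.594 and -0.551), with genes normalised alone (-0.420) and without PAC replicate 1 (-0.307).

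Kat8 encodes MOF, which acetylates histone H4 within the MSL and NSL complexes. Kat8 (chromosome 7, 127912517 to 127925838, plus strand) had 176.0, 162.6 and 145.2 CPM in PAC, 161.3, 163.5 and 159.5 in RS, and 152.7, 119.6 and 121.1 in ES. All RS libraries lay inside the range of PAC, and the range of ES overlapped that of PAC. The log2 fold change of RS against PAC was 0.0013 with a 95% interval from -0.296 to 0.299 (adjusted p = 0.994), that of ES against RS was -0.30 (adjusted p = 0.0911), and that of ES against PAC was -0.30 (adjusted p = 0.0734). The first was 0.390 and past the threshold when NCBI genes were normalised alone (adjusted p = 0.0367), a setting that moved all 9 genes upward in this comparison. With total counts alone both ES values passed, at -0.643 and -0.599, as they did on FPKM and without ES replicate 1 (-0.423 and -0.419).

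In the rest of the NuA4/TIP60 complex, more genes were called lower than higher at each step. Of its 16 other tested genes, 10 were lower and 2 higher in RS than in PAC, 8 lower and 3 higher in ES than in RS, and 12 lower and 1 higher in ES than in PAC. The medians were -0.499, -0.459 and -0.979, against -0.464, 0.182 and -0.385 over protein-coding genes and 0.113, 0.048 and -0.093 over all features, so the first median was close to that of protein-coding genes. Among protein-coding genes 46.9% were lower in RS than in PAC, 21.7% in ES than in RS and 42.6% in ES than in PAC. With Kat5 and Epc1 counted among them, the lower calls outnumbered the higher under all 20 alternatives. Trrap, the large scaffold shared with other acetyltransferase complexes, fell to 4.54 ± 0.567 CPM in RS, against 44.1 ± 19.2 in PAC (SD, n = 3 each; log2 fold change -3.28, adjusted p = 1.56e-05), and was 4.41-fold higher in ES than in RS (2.14, adjusted p = 0.000515). Brd8, the bromodomain subunit, fell to 14.9 ± 5.41 CPM in ES, against 79.4 ± 17.7 in PAC (-2.41, adjusted p = 1.20e-05). Ing3, the reader of methylated histone H3, fell to 11.4 ± 4.17 CPM in ES, against 24.1 ± 1.18 in RS (-1.08, adjusted p = 0.00278). Morf4l2 went the other way, with 19.9 ± 1.53 CPM in RS against 9.55 ± 2.01 in PAC (1.06, adjusted p = 0.000464).

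The MSL and NSL genes, the partners of Kat8, split more evenly. Of 11 tested, 2 were higher and 6 lower in RS than in PAC, 5 were higher and 2 lower in ES than in RS, and 4 were higher and 6 lower in ES than in PAC. With Kat8 counted among them, the excess of higher calls in ES against RS was lost or turned with total counts alone and on FPKM. Kansl2, an NSL subunit, fell to 4.76 ± 0.264 CPM in RS, against 27.4 ± 4.39 in PAC (SD, n = 3 each; log2 fold change -2.53, adjusted p = 1.02e-06). Msl3, the MSL reader of methylated histones, rose to 8.01 ± 0.603 CPM in RS, against 3.93 ± 1.37 in PAC (1.03, adjusted p = 0.00440). Kansl1, the NSL scaffold, rose to 49.5 ± 7.84 CPM in ES, against 24.2 ± 0.256 in RS (1.03, adjusted p = 0.00206), while Mcrs1 fell to 64.1 ± 8.45 CPM in ES, against 106.3 ± 2.95 in RS (-0.73, adjusted p = 0.00103).

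Of 11 other histone acetyltransferase genes, 4 were higher and 3 lower in RS than in PAC, 5 higher and 2 lower in ES than in RS, and 4 higher and 4 lower in ES than in PAC. With Kat5 and Kat8 counted among them, the excess of higher calls in ES against RS was lost or turned with total counts alone, on FPKM and with NCBI genes alone. Kat7 (HBO1) fell to 82.1 ± 8.19 CPM in RS, against 449.4 ± 80.0 in PAC (SD, n = 3 each; log2 fold change -2.45, adjusted p = 4.33e-06). Cdyl, a chromodomain protein of the Y-linked family implicated in spermatid histone acetylation, rose to 391.2 ± 29.4 CPM in RS, against 92.6 ± 15.3 in PAC (2.08, adjusted p = 1.06e-05).

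Among the bromodomain genes, Brd2 was held into round spermatids and then fell, while Brdt changed little. Brdt (chromosome 5, 107331116 to 107387061, plus strand), whose protein binds acetylated histone H4, had 288.7, 279.5 and 328.1 CPM in PAC, 251.0, 247.5 and 237.4 in RS, and 196.7, 213.4 and 233.9 in ES. Each cell type lay below the one before it with no overlap, by small margins. The level was 1.39-fold lower in ES than in PAC (log2 fold change -0.48, SE 0.12, adjusted p = 0.00515). That call was lost with upper-quartile factors (-0.171), with NCBI genes normalised alone (-0.226) and when ES and PAC were fitted without RS (-0.275). For RS against PAC the value was -0.28 (95% interval -0.555 to -0.015, adjusted p = 0.0553), and for ES against RS it was -0.19 (-0.462 to 0.078, adjusted p = 0.223). The first passed the threshold under 4 alternatives and turned positive with upper-quartile factors (0.026) and with NCBI genes alone (0.103), so the data do not fix its direction.

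Brd2 (chromosome 17, 34112019 to 34122814, minus strand), the widely expressed relative of Brdt, had 549.9, 494.5 and 474.1 CPM in PAC, 507.4, 490.2 and 461.7 in RS, and 215.9, 240.3 and 229.2 in ES. Libraries of PAC and RS overlapped, and every ES library was below every library of both other cell types. The level was 2.13-fold lower in ES than in RS (log2 fold change -1.09, SE 0.12, adjusted p = 3.18e-05) and 2.22-fold lower in ES than in PAC (-1.15, SE 0.12, adjusted p = 8.88e-06), under all alternatives. For RS against PAC the value was -0.06 (95% interval -0.317 to 0.202, adjusted p = 0.672). It was positive under 5 alternatives, and with NCBI genes normalised alone it passed the threshold at 0.332 (adjusted p = 0.0264).

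Brd3, another bromodomain gene of this family, averaged 54.95 ± 31.5 CPM in PAC, 29.3 ± 2.13 in RS and 55.05 ± 26.5 in ES (SD, n = 3 each). It passed in no comparison, with edgeR adjusted p of 0.0835 for RS against PAC, 0.113 for ES against RS and 0.994 for ES against PAC, and its libraries spread widely in PAC and ES.

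Hdac1 encodes a class I deacetylase that works in NuRD and other repressor complexes. Hdac1 (chromosome 4, 129516104 to 129542646, minus strand) had 198.2, 184.1 and 190.1 CPM in PAC, 160.3, 163.3 and 161.8 in RS, and 75.3, 98.4 and 107.1 in ES. None of the 3 cell types overlapped another. The level was 1.73-fold lower in ES than in RS (log2 fold change -0.79, SE 0.14, adjusted p = 0.000852) and 2.04-fold lower in ES than in PAC (-1.03, SE 0.14, adjusted p = 6.45e-05), under all alternatives. For RS against PAC the value was -0.24 (95% interval -0.545 to 0.069, adjusted p = 0.144). It passed with DESeq2 (-0.294) and without ES replicate 1 (-0.236) and was positive with upper-quartile factors (0.070) and with NCBI genes alone (0.150). The Hdac1 counts were not whole in 9 of 9 libraries, and those of Rnf8 in 8 of 9.

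Of 13 other tested genes of NuRD and NuRD-like complexes, 3 were higher and 7 lower in RS than in PAC, 5 higher and 2 lower in ES than in RS, and 3 higher and 7 lower in ES than in PAC. With Chd5 and Hdac1 counted among them, the excess of higher calls in ES against RS was lost or turned under 8 alternatives. Rbbp4, a histone chaperone subunit, fell to 37.0 ± 2.71 CPM in RS, against 153.1 ± 11.2 in PAC (SD, n = 3 each; log2 fold change -2.05, adjusted p = 5.73e-06). Cdk2ap1 was highest in RS, at 32.3 ± 1.01 CPM, against 12.6 ± 0.763 in PAC (1.36, adjusted p = 5.03e-06), and fell to 10.7 ± 0.234 CPM in ES, against the same RS level (-1.59, adjusted p = 6.73e-06). Mbd2, which binds methylated DNA, rose to 46.7 ± 8.99 CPM in ES, against 10.4 ± 1.18 in PAC (2.17, adjusted p = 1.20e-06).

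Of 15 other tested deacetylase genes, 4 were higher and 8 lower in RS than in PAC, 6 higher and 5 lower in ES than in RS, and 3 higher and 8 lower in ES than in PAC. Sirt7 fell to 0.701 ± 0.127 CPM in RS, against 9.61 ± 1.70 in PAC (SD, n = 3 each; log2 fold change -3.77, adjusted p = 3.47e-07). Hdac11 rose to 106.5 ± 6.17 CPM in RS, against 33.8 ± 3.87 in PAC (1.66, adjusted p = 4.55e-06). Hdac6, a largely cytoplasmic deacetylase of tubulin, rose to 20.1 ± 2.78 CPM in ES, against 1.59 ± 0.509 in RS (3.66, adjusted p = 4.24e-06), and Hdac5 fell to 24.3 ± 4.50 CPM in ES, against 70.2 ± 3.13 in RS (-1.53, adjusted p = 2.57e-05).

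Kdm3a encodes a lysine demethylase of histone H3 that in mouse spermatids is needed for the genes of transition protein and protamine. Its promoter window is shown because Kdm3a fell in RS against PAC while Tnp1 and Prm1 rose. It lies at chr6:71632868-71633167 on the minus strand, and holds 1 match to the RFX half-site and 3 to the GC box.
Kdm3a: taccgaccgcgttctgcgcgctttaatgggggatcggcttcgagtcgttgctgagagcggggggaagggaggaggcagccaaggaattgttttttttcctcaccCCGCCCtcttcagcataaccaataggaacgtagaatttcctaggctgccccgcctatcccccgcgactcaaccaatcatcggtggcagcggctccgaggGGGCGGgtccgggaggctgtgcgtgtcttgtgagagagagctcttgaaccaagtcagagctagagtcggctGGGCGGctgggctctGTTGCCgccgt

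Kdm3a (chromosome 6, 71588970 to 71632990, minus strand) had 325.4, 347.1 and 422.0 CPM in PAC, 144.2, 142.0 and 143.8 in RS, and 99.99, 141.9 and 163.6 in ES. Every PAC library was above every library of the other cell types, and the ES range contained the RS libraries. The level was 2.55-fold lower in RS than in PAC (log2 fold change -1.35, SE 0.18, adjusted p = 4.56e-05) and 2.70-fold lower in ES than in PAC (-1.43, SE 0.18, adjusted p = 3.09e-05). For ES against RS the value was -0.08 (95% interval -0.469 to 0.300, adjusted p = 0.720), and without ES replicate 1, the lowest library, it was 0.092. In RS against PAC the log2 fold change of Tnp1 was 3.18 (adjusted p = 4.62e-05) and that of Prm1 was 3.19 (adjusted p = 5.11e-06).

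Of 20 other tested lysine demethylase genes, 5 were higher and 10 lower in RS than in PAC, 6 higher and 3 lower in ES than in RS, and 6 higher and 10 lower in ES than in PAC. With Kdm3a counted among them, the excess of higher calls in ES against RS was lost or turned with total counts alone and on FPKM. Phf2 fell to 1.81 ± 0.615 CPM in RS, against 35.0 ± 16.4 in PAC (SD, n = 3 each; log2 fold change -4.27, adjusted p = 8.36e-05), and Uty, on the Y chromosome, rose to 16.8 ± 2.05 CPM in RS, against 6.39 ± 0.501 in PAC (1.39, adjusted p = 1.47e-05). Kdm4b, a demethylase of histone H3, rose to 13.6 ± 1.38 CPM in ES, against 4.61 ± 1.10 in PAC (1.56, adjusted p = 3.40e-05).

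Writers and movers of chromatin outside these families were mostly lower at the first step. Of 22 histone methyltransferase genes, 16 were lower and 2 higher in RS than in PAC (median log2 fold change -1.17), and 9 were higher and 3 lower in ES than in RS (0.713). Of 19 chromatin remodelling ATPase genes besides Chd5, 15 were lower and 1 higher in RS than in PAC (median -1.11), and 9 were higher and 1 lower in ES than in RS (0.595). These 4 majorities held under all 20 alternatives, with Chd5 counted among the ATPases. Of 16 histone chaperone, proteasome activator and DNA break genes, 13 were lower and 2 higher in RS than in PAC (median -1.09). Among protein-coding genes as a whole 46.9% were lower in RS than in PAC, with a median of -0.464, and 31.8% were higher in ES than in RS, with a median of 0.182. Suv39h2, a testis-enriched methyltransferase of heterochromatin, rose to 120.6 ± 9.66 CPM in RS, against 40.7 ± 3.70 in PAC (SD, n = 3 each; 1.57, adjusted p = 3.70e-06). Camk4, a kinase needed in mice for the exchange of transition proteins for protamines, rose to 61.9 ± 3.18 CPM in RS, against 14.7 ± 1.13 in PAC (2.07, adjusted p = 3.68e-06).

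**Figure D3:**
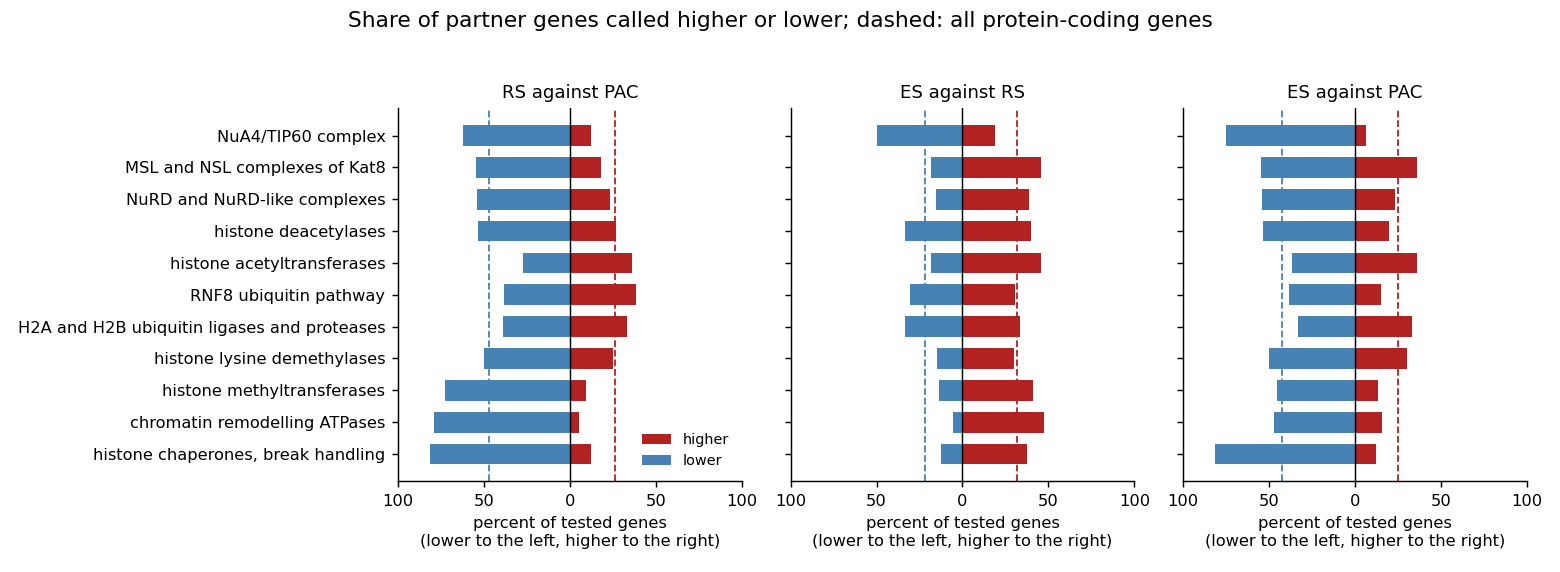
Percent of the tested partner genes of each list, the 9 genes left out, called higher (red, to the right) and lower (blue, to the left) in each comparison; dashed lines are the shares among protein-coding genes. For the NuA4/TIP60 complex 10 of 16 genes were lower in RS than in PAC and 12 of 16 in ES than in PAC, and for the remodelling ATPases 15 of 19 were lower in RS than in PAC.

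Whether the 2 steps differed for a gene was tested in the same fit, as the change from RS to ES minus the change from PAC to RS, a contrast in which RS counts in both steps. Rnf8 had the largest difference at 3.44 (adjusted p = 1.86e-05), since it fell and then rose. Brd2 had a difference of -1.03 (adjusted p = 0.00116), since it fell at the second step. Both held under every alternative run. Kdm3a (1.26, adjusted p = 0.00499), Kat5 (0.990, adjusted p = 0.00639) and Epc1 (0.634, adjusted p = 0.0328) fell more at the first step, but with total counts alone or on FPKM these 3 no longer passed. The Epc1 difference was also lost with no filter (0.574) and without any of 6 single libraries, and those of Epc1 and Kat5 were lost with upper-quartile factors and with NCBI genes alone. Hdac1 had -0.551 (adjusted p = 0.0704), Chd5 -0.465 (adjusted p = 0.474), Kat8 -0.301 (adjusted p = 0.291) and Brdt 0.092 (adjusted p = 0.730). Under total counts, FPKM or NCBI genes alone Hdac1 and Kat8 passed with a negative difference. Among all features 55.9% passed this test, 26.9% with a positive and 29.0% with a negative difference, and among protein-coding genes 61.6% passed, 39.3% with a positive and 22.3% with a negative one.

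Ratios of FPKM within a library set a gene against a relative without a scaling between libraries. Of 6 ratios, 5 varied over the 3 cell types in an exact permutation test of the F statistic over 1680 arrangements, whose smallest p is 0.00357, with adjustment over the 6. The ratio of Chd5 to Chd4, its widely expressed relative in NuRD, was 0.201, 0.309 and 0.297 in PAC. It was 1.40, 1.35 and 1.34 in RS, and 2.10, 1.62 and 1.80 in ES. Its geometric means, the kind of mean used for all 6 ratios, were 0.264 in PAC, 1.37 in RS and 1.83 in ES (exact p = 0.00357, adjusted p = 0.0107). Chd4 was thus the more abundant per length in PAC and Chd5 in both kinds of spermatid. The ratio of Kdm3a to Kdm3b averaged 58.0 in PAC, 31.4 in RS and 16.9 in ES with no overlap (exact p = 0.00357, adjusted p = 0.0107). Kdm3b itself averaged 1.40 FPKM in PAC, 1.08 in RS and 1.49 in ES.

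The ratio of Brdt to Brd2 was 0.874, 0.930 and 1.14 in PAC, 0.891, 0.912 and 0.914 in RS, and 1.70, 1.60 and 1.88 in ES. PAC and RS libraries overlapped and all 3 ES libraries lay above them (exact p = 0.0250, adjusted p = 0.0375). The ratio of Kat5 to Kat8 averaged 1.06 in PAC, 0.429 in RS and 0.433 in ES (exact p = 0.0357, adjusted p = 0.0429). The ratio of Epc1 to its paralog Epc2 averaged 1.89 in PAC, 0.745 in RS and 0.829 in ES (exact p = 0.0179, adjusted p = 0.0357). With any RS library left out, these 3 ratios no longer passed, and that of Epc1 to Epc2 also failed without any ES library. The ratio of Hdac1 to Hdac2 averaged 5.83 in PAC, 5.95 in RS and 4.90 in ES and did not pass (exact p = 0.193). Between any pair of cell types the smallest two-sided p of 3 libraries against 3 is 0.1, so pairs could not pass 0.05.

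**Figure D4:**
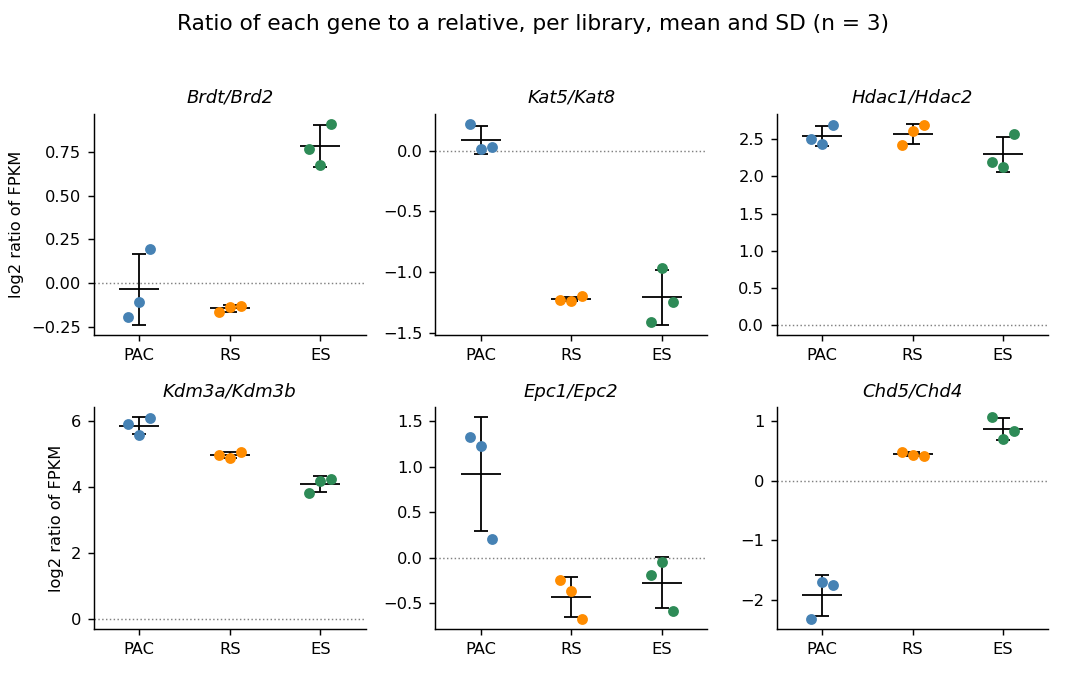
Log2 ratio of the FPKM of each gene to that of a relative in PAC, RS and ES; points are libraries, bars the mean and SD of 3, and the dotted line marks equal FPKM. Chd5/Chd4 crosses from below to above equal FPKM between PAC and RS, and Brdt/Brd2 lies above it in all 3 ES libraries.

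For each of the 9 genes, the genes with the most similar course over the 9 libraries were found among 12848 genes by the root mean square difference of centred log2 CPM, a measure on which 0 is an identical course. For Brdt they were Ube2d3 (0.038) and Ube2d2b (0.059), both ubiquitin-conjugating enzyme genes, and for Brd2 they were Izumo4 (0.069) and Naa25 (0.069). For Epc1 they were Dhx34 (0.055) and Prpf40b (0.064), for Kat5 Srp14 (0.064) and Grtp1 (0.072), and for Kat8 Lrriq3 (0.051) and Vps4a (0.056). Those of Kdm3a were Atp11a (0.074) and Ddx18 (0.077), and those of Hdac1 were Tex10 (0.059) and Mterf3 (0.063). The nearest courses to Chd5, of Gm14151 (0.107) and Sh3d21 (0.107), and to Rnf8, of Rab8b (0.113), were less close. Rab8b averaged 43.9 CPM in PAC, 9.98 in RS and 20.3 in ES, and Sh3d21 averaged 91.4 CPM in PAC, 225.4 in RS and 361.7 in ES. The points of these courses share the libraries, and no gene of the 9 was among the nearest of another.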

How the data were processed

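Total RNA of 9 libraries, 3 each of PAC, RS and ES, was depleted of ribosomal RNA and sequenced with the strand kept, per the labels. HISAT2 and StringTie were used on the build GRCm38.p6, per the submitters' processing notes, which give no versions. The authors deposited estimated counts per feature, not normalized, of which 18.85% were not whole although their label calls them raw. They also deposited FPKM values of the same features, whose lengths and totals the labels do not state. Symbols and loci came from a RefSeq table of the same build, overlaps from GENCODE.

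Counts were rounded, filtered with filterByExpr (minimum count 10, 26030 features kept, 24463 removed) and scaled by TMM (factors 0.758 to 1.10). Each pair of cell types was compared in 1 fit of all libraries by the robust quasi-likelihood F test of edgeR, with p-values adjusted after Benjamini and Hochberg across the whole table and called below 0.05. The biological coefficient of variation was 0.24. CPM are TMM-scaled, and errors are SD of 3 libraries. The fit was tested on simulated counts with 200 changed features. Software was DESeq2 1.42.0, edgeR 4.0.16 and limma 3.58.1 in R 4.3.3, with numpy 2.4.6, pandas 2.3.3 and matplotlib 3.10.9 in Python 3.11.15.

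All 9 genes are reported in every comparison. From each partner list the text draws on the called genes with the largest rise and fall at a mean of at least 1 CPM, and for each of the 9 genes the 2 nearest in course; a few genes that these rules name are not reported here. Brd3, Tnp1 and Prm1 are named as references. Genes, lists and partners were chosen with earlier results of these data known. Alternatives were other scalings, filters, DESeq2, limma on log2(FPKM + 0.1) and log2(FPKM + 1), NCBI genes alone, fits of 6 libraries, a replicate block and leaving out each library. Promoters were read from a RefSeq table for 7 of the 9 genes. It held no window for Hdac1, and a promoter of Epc1 is not reported here.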

Additional observations from a re-analysis of the deposited data

How the results depend on the processing

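The 20 alternatives kept the direction and call of Chd5, Rnf8, Epc1, Kat5 and Kdm3a in RS against PAC, of Brd2, Hdac1 and Rnf8 in ES against RS, and of all called genes but Brdt in ES against PAC. Scaling sets the values near 0: relative to TMM the median of all features moved by 0.308 (RS against PAC) and 0.305 (ES against PAC) with upper-quartile factors, by -0.328 and -0.284 (ES against RS and against PAC) with total counts, by 0.141 (ES against RS) with RLE factors and by -0.33 (ES against RS) on log2(FPKM + 0.1). The causes of the changes below were not tested, beyond the fewer features or libraries that a setting holds.

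In RS against PAC the direction turned for Brdt with upper-quartile factors (0.026) and NCBI genes alone (0.103), for Brd2 with these (0.25 and 0.332), both FPKM settings (0.03 each) and 1 library left out (range -0.1 to 0.003), for Kat8 with RLE factors and DESeq2 (-0.056 each) and 1 library left out (-0.067 to 0.065), and for Hdac1 with upper-quartile factors (0.07) and NCBI genes alone (0.15). Kdm3a in ES against RS turned with RLE factors and DESeq2 (0.05 each) and 1 library left out (-0.253 to 0.092), and Kat8 in ES against PAC with upper-quartile factors (0.009). NCBI genes alone, with fewer features tested and the libraries scaled on those features, gave 5175 higher and 5459 lower calls in RS against PAC. In ES against PAC it gave 4669 higher and 5509 lower calls. With this setting 3 of the 9 genes were higher in RS against PAC. The median of protein-coding genes in RS against PAC was then -0.077, against -0.464 in the main fit. In ES against RS, log2(FPKM + 0.1) gave 4114 higher and 8674 lower calls and log2(FPKM + 1) gave 8934 lower. There 2 of the 9 genes were higher with RLE factors, DESeq2 or fits of 6 libraries, and 6 were lower with total counts, both FPKM settings or NCBI genes alone. With 1 library left out, 1 to 2 were higher and 2 to 4 lower.

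The difference between the steps, a contrast chosen after seeing the data, had 4923 negative calls with NCBI genes alone. Among the 9 genes 2 were positive and 2 negative with upper-quartile factors, 1 and 3 with total counts and both FPKM settings, 2 and 3 with NCBI genes alone, and 1 to 2 were negative with 1 library left out. For Brdt it was -0.223, -0.272, -0.456, -0.453 and -0.433 with upper-quartile factors, total counts, log2(FPKM + 0.1), log2(FPKM + 1) and NCBI genes alone, and -0.003 to 0.149 with 1 library left out. The log2 ratio differences of RS against PAC, ES against RS and ES against PAC, none past 0.05 with 3 libraries against 3, were -0.108, 0.928 and 0.82 for Brdt/Brd2, -1.31, 0.012 and -1.298 for Kat5/Kat8, -0.885, -0.891 and -1.776 for Kdm3a/Kdm3b, -1.344, 0.154 and -1.19 for Epc1/Epc2 and 2.369, 0.421 and 2.79 for Chd5/Chd4. With 1 library left out the spans over cell types were 0.864 to 0.981 for Brdt/Brd2, 1.244 to 1.42 for Kat5/Kat8 and 1.139 to 1.702 for Epc1/Epc2.

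Whether replicate numbers pair the libraries is not settled. Same-numbered libraries correlated at -0.04 to 0.273 in their deviations, and libraries with different numbers were not compared. A replicate block, fitted as an alternative, called 2 of the 9 genes higher in ES against RS, Chd5 joining Rnf8 at 0.668 (adjusted p = 0.0470), and left the other counts for the 9 genes as they were. Rnf8, at 1.66 to 9.67 CPM, is the gene whose values depth limits most.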

Other observations

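The spermatid chromatin protein genes did not share 1 course. The linker histone gene H1f6, which encodes the testis-specific H1t, was lowest in RS and averaged 1699 ± 447 CPM in PAC, 16.7 ± 0.690 in RS and 274.1 ± 29.9 in ES (SD, n = 3 each), with a log2 fold change of -6.67 in RS against PAC (edgeR, adjusted p = 4.60e-09) and of 4.04 in ES against RS (adjusted p = 7.63e-07). Of 14 tested spermatid chromatin protein genes, 8 were higher and 5 lower in RS than in PAC, and 9 were higher and 1 lower in ES than in RS. H3f3a, a gene of the replacement histone H3.3, was the one that fell, to 185.1 ± 21.6 CPM in ES, against 272.1 ± 13.3 in RS (-0.56, adjusted p = 0.00389). Smarca1, a remodelling ATPase gene, averaged 5.93 ± 0.395 CPM in ES, against 0.652 ± 0.243 in RS (3.18, adjusted p = 2.62e-05), and Usp22, a ubiquitin protease gene, 12.2 ± 3.28 CPM in ES, against 0.890 ± 0.200 in RS (3.77, adjusted p = 5.41e-06). Among the same libraries 15 of 15 tested Sertoli cell markers, 9 of 10 Leydig cell markers (1 lower) and 5 of 11 pachytene markers (2 lower) were higher in ES than in RS. The part of such cells in these values was not tested.

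The ratio of count to FPKM was centred per library over 3914 features with more than 500 counts. It differed between cell types for 7 of the 8 genes with enough counts (exact permutation test over 3 cell types, adjusted p from 0.0286 to 0.0367). Epc1 was the exception at an adjusted p of 0.0964. The mean deviations were small, from -0.048 in PAC for Kat5 to 0.055 in PAC for Brdt on the log2 scale among those 7. Over all 3914 features the SD of the deviations of single libraries was 0.098. The share of all features that would pass this test was not computed, so the count of 7 cannot be read as particular to these genes. The centring removes any shift common to a whole library, and Rnf8 was not measured here. Calls made on FPKM differed from those on counts for some of the 9 genes in ES against RS.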
